A study of Mus musculus with 2 samples.

Results

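Messenger RNA of the αβ T cell receptor constant regions and the CD3 chains was examined in 2 droplet single-cell libraries of mouse T cells, 1 labelled SAP and 1 labelled Control. The 7 genes, which are 7 of the 55357 gene rows of the count matrices, were chosen by symbol: Trac, Trbc1 and Trbc2 for the receptor constant regions, and Cd3d, Cd3e, Cd3g and Cd247 for the signalling chains. Each symbol matched 1 row, and 0 of the 7 genes were left out by a filter. The series text describes T cells taken from the gut of GF mice and cultured with dendritic cells that had been exposed to phages from SAP mice (SAP) or from healthy mice (Control). T cells touched by the dendritic cells were then marked by FucoID, an enzymatic proximity tag that puts a fucose-linked biotin on the cell surface. The labels give ileum as tissue and T cells as cell type. They do not say whether the sequenced cells were the tagged fraction, what SAP stands for, how many mice were pooled, or the strain, sex or age of the mice. Each condition is 1 library, so there is no replicate check and no test of the conditions. All intervals are 95% intervals for counting error only: exact conditional binomial for ratios of UMI sums and exact Clopper-Pearson for shares of cells.

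A T cell receptor of the αβ type is a pair of chains, each with a variable region and a constant region, held on the cell surface by the CD3 complex. The constant region of the α chain is encoded by Trac. The β chain uses either Trbc1 or Trbc2, neighbouring genes that each follow their own set of joining segments, so a rearranged β chain carries only 1 of the pair. CD3γ (Cd3g) and CD3δ (Cd3d) each pair with CD3ε (Cd3e), and the ζ chain (Cd247) joins as a homodimer that carries most of the tyrosine motifs phosphorylated after engagement. T cells of the γδ type, abundant in the intestinal epithelium, use constant genes such as Trdc in place of Trac and Trbc but still need CD3 chains. Their receptor in mice is assembled without CD3δ.

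The cells behind the values were as follows. The deposited matrices held 5203 SAP barcodes with 19144320 UMIs and 5737 Control barcodes with 19142384 UMIs, a UMI being 1 tagged mRNA molecule. After filters and doublet removal, 4826 SAP cells (median 3374 UMIs per cell) and 5408 Control cells (median 3095.5) were retained, and 5 retained barcodes occurred in both libraries. Clustering without the 7 genes and without receptor segments gave 12 clusters, of which 11 were T-like by their markers. The remaining cluster was led by Folr1, a folate receptor gene. It held 77 SAP cells with a median of 16206 UMIs and 48 Control cells with a median of 2361 UMIs, and so took 8.44% of SAP UMIs against 3.34% of Control UMIs. Of the T-like clusters, cluster 2 was the shallowest, with 847 SAP and 814 Control cells at a median of 1264 UMIs. Its median mitochondrial share was 3.35%, against 1.04 to 1.41% in the other T-like clusters. The part of cluster 2 in the values at low depth was not tested. Over whole libraries, markers of other cell types were low beside the T cell list, whose summed level was 8413 CPM (counts per 1000000 summed UMIs) in SAP and 8875 CPM in Control. That list of 17 genes includes the 7 studied here, so its sum is not a measure apart from them. Of its genes, only the other 10 entered the T-like calls. The epithelial list summed to 317 CPM in SAP and 215 CPM in Control, and the plasma cell list to 114 CPM in SAP and 1210 CPM in Control, with Mzb1 at 0 in both. Of the 21603 plasma list UMIs in Control, 18933 came from 3 cells, 1 each in the Trdc gate, the Cd4 gate and the cells with no gate gene described below. The dendritic cell or macrophage list summed to 76.7 CPM in SAP and 81.6 CPM in Control, with Clec9a, Cd209a, C1qa, C1qb and Adgre1 at 0 in both. The part of these cells in the results was not tested.

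The sequences matter for the β chain because Trbc1 and Trbc2 are near copies. In GRCm38 with GENCODE M21, Trbc1 lies on the forward strand at chr6:41538218-41539881 and Trbc2 at chr6:41546730-41548352, with starts 8512 bases apart. Of 518 constant-region coding bases compared, 23 differed (95.6% identity), and the longest identical run was 259 bases. Exon 1 spans 375 bases and differs at 1 position, C260A (Trbc1 base first, counted from 1 at the first base of that exon). That difference is shown in 51 bases of exon 1, chr6:41538452-41538502 in Trbc1 and chr6:41546964-41547014 in Trbc2, with the differing base in capitals:
Trbc1: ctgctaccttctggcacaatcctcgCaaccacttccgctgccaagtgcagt
Trbc2: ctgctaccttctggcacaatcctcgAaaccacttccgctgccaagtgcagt

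The other 22 differences fall in the 143 coding bases after exon 1. Most of them sit in 107 bases of exon 3, chr6:41539229-41539335 in Trbc1 and chr6:41547772-41547878 in Trbc2. These are shown because they are what a read near the 3′ end of the coding sequence can use to separate the genes, and the 15 differing bases are in capitals:
Trbc1: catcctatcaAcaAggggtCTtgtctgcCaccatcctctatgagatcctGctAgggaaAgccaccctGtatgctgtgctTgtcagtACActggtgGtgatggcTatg
Trbc2: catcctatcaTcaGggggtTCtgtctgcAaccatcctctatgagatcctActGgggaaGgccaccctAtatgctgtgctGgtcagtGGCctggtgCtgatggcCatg

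The 3′ untranslated regions, where reads of a 3′ kit gather, were 216 bases for Trbc1 and 171 bases for Trbc2 in the same annotation. Over 161 aligned bases they matched at 119 (73.9%), and the longest shared run was 8 bases. A read within exon 1 can therefore seldom be assigned to 1 of the genes, whereas a read in the 3′ untranslated region can. Which reads the authors' counting assigned is not given in the sources used here, so the split between Trbc1 and Trbc2 is uncertain to that extent.

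Of the other genes, Trac lies at chr14:54220521-54224206 on the forward strand. Cd3g (chr9:44969572-44980431, reverse), Cd3d (chr9:44981786-44987339, forward) and Cd3e (chr9:44998740-45009627, reverse) stand side by side, and Cd247 lies apart at chr1:165788681-165877277 on the forward strand. Across several cell classes below, though not in the Trdc gate, the levels of Cd3e and Cd3g ran opposite to that of Cd247. The promoters of the 4 CD3 chain genes are shown for that reason. Each is 300 bases, 250 before and 50 after the annotated start, from RefSeq on GRCm38.p6, read 5′ to 3′ on the gene's own strand: chr9:44981536-44981835 forward for Cd3d, chr9:45009562-45009861 reverse for Cd3e, chr9:44980382-44980681 reverse for Cd3g and chr1:165788431-165788730 forward for Cd247. Capitals mark matches to CACCTG, an E-box motif, or CAGGAAG, an ETS-type motif, on either strand:
Cd3d: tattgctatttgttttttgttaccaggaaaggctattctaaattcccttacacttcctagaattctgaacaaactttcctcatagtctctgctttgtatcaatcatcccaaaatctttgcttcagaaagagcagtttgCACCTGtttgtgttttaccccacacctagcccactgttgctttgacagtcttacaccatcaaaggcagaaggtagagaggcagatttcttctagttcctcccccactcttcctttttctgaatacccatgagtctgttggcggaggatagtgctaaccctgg
Cd3e: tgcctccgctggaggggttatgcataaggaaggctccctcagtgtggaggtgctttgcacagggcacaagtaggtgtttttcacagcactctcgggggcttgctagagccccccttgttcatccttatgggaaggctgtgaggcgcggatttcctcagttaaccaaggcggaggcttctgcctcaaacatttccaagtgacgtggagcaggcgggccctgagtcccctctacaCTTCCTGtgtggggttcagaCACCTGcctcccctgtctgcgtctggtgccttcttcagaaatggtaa
Cd3g: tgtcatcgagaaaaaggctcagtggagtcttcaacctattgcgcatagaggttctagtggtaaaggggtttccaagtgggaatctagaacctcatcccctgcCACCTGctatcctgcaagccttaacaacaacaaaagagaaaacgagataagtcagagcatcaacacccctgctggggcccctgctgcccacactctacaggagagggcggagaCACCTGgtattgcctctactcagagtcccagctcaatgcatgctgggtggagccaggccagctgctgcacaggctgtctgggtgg
Cd247: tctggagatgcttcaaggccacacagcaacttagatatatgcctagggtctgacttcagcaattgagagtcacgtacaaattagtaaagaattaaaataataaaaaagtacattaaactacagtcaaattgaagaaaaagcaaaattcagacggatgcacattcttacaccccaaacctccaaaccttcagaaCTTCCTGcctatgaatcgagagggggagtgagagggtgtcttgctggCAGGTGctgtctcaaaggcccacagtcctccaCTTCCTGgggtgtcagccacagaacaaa

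CACCTG occurred once each in the Cd3d, Cd3e and Cd247 windows and at 2 places in the Cd3g window, and 20.2% of 32851 RefSeq promoters of the same length hold it. CAGGAAG occurred 1 time for Cd3e and 2 times for Cd247, with 13.3% of all promoters holding it. TATAAA (13.6% of promoters) and TGTGGT (16.8%), searched on both strands, had 0 matches in the 4 windows. No entry for Trac, Trbc1 or Trbc2 was used. A match is a description of letters and not of a bound site.

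Levels of the 7 genes were close between the libraries. Trac had 455 CPM in SAP and 500 CPM in Control, a SAP over Control ratio of 0.909 (0.882–0.937). Trbc1 had 685 CPM in SAP and 706 CPM in Control, and Trbc2 1042 CPM in SAP and 1128 CPM in Control. These ratios were 0.970 and 0.924. For the CD3 chains, Cd3e, the partner shared by both CD3 dimers, had 1399 CPM in SAP and 1553 CPM in Control, with the lowest ratio of the 7, 0.901. Cd3g had 2073 CPM in SAP and 2182 CPM in Control (ratio 0.95), and Cd3d had 736 CPM in SAP and 783 CPM in Control (ratio 0.940). Cd247 had 89.5 CPM in SAP and 90.6 CPM in Control (ratio 0.988). All 7 ratios lay below 1 on this scale, while the median over all genes tested was 1.03. UMI counts of a 3′ kit are not scaled by gene length and depend on where a gene's reads fall, so the levels of different genes are not ranked here.

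**Figure D1:**
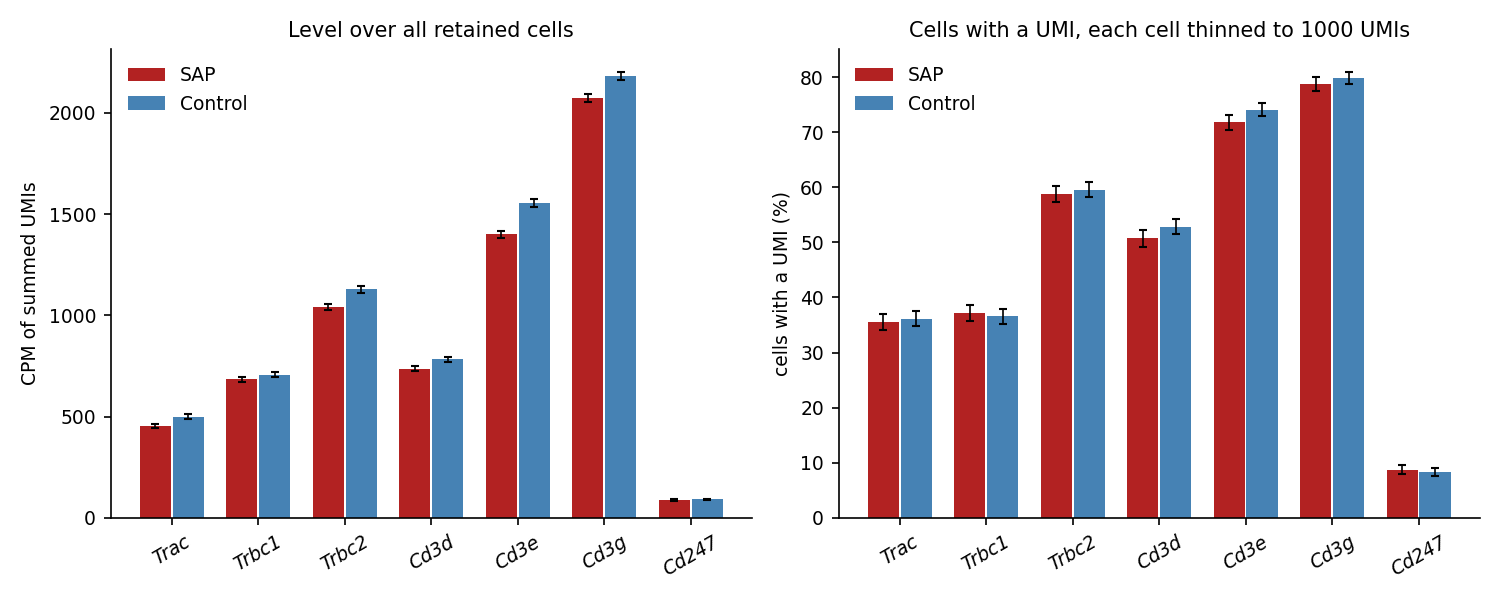
Levels and detection of the 7 genes in the SAP (red) and Control (blue) libraries. Left, CPM of summed UMIs over all retained cells, with 95% Poisson intervals; right, percent of cells with a UMI after each cell was thinned to 1000 UMIs, with 95% Clopper-Pearson intervals. In both panels each gene's pair of bars is close, as for Cd247 at 89.5 CPM in SAP and 90.6 CPM in Control.

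The values without the Folr1-led cluster differ, since its deep SAP cells carried few UMIs of these genes. In it the 7 genes ran at 0.0245 to 0.0542 of their level in the other SAP cells and at 0.0316 to 0.104 in the other Control cells. In the T-like clusters alone, 4 of the 7 ratios were below 1. Trac had 495 CPM in SAP and 516 CPM in Control, a ratio of 0.960 (0.932–0.990). Cd3e had 1524 CPM in SAP and 1603 CPM in Control, a ratio of 0.951 (0.935–0.967). Trbc2 stood at 0.973 (0.954–0.993), and the intervals of Trbc1 (1.02; 0.999–1.05), Cd3d (0.994; 0.971–1.02), Cd3g (1.0; 0.989–1.02) and Cd247 (1.04; 0.971–1.12) held 1. None of the 7 genes was past 1.2-fold in all retained cells, where 16.3% of 5722 genes tested were, nor in the T-like clusters, where 8.33% of 5477 genes were.

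The share of cells with a UMI depends on depth, so shares were read on cells thinned to 1000 UMIs apiece, with 501 SAP and 507 Control cells of lower depth set aside. Trac was then seen in 35.6% of SAP and 36.1% of Control cells (unthinned 62.0% and 63.0%). Trbc1 was seen in 37.1% of SAP and 36.6% of Control cells, and Trbc2 in 58.8% of SAP and 59.6% of Control cells. Among the CD3 chains, Cd3g was seen in 78.8% of SAP and 79.9% of Control cells, Cd3e in 71.8% and 74.1%, Cd3d in 50.7% and 52.8%, and Cd247 in 8.72% and 8.32%. The background level is given by the Folr1-led cluster, where the thinned shares of the 7 genes ran between 1.49% and 17.9% of 67 SAP cells and between 3.03% and 33.3% of 33 Control cells. The libraries lay close together, and Cd3e had the widest gap, 71.8% (70.4–73.1) in SAP against 74.1% (72.9–75.3) in Control. For Cd247 the background share was 1.49% (0.0378–8.04) in SAP and 3.03% (0.0767–15.8) in Control, so its thinned shares were not clear of background at this depth.

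Cells were then split by what else they carried. A cell entered the Trdc, Cd8b1 or Cd4 gate with at least 1 UMI of that gene and none of the other two. Trdc encodes the constant region of the δ chain, Cd8b1 the β chain of the CD8 coreceptor of conventional killer T cells, and Cd4 the coreceptor of helper T cells. The Trdc gate held 2022 SAP cells (41.9%) and 2232 Control cells (41.3%). The Cd8b1 gate held 548 SAP cells (11.4%) and 541 Control cells (10.0%), and the Cd4 gate 224 SAP cells (4.64%) and 234 Control cells (4.33%). A further 1963 SAP cells (40.7%; median 2956 UMIs) and 2318 Control cells (42.9%; median 2784 UMIs) carried none of the 3 genes, and they hold cells whose gate gene was missed as well as cells without it. Median depth in the gates lay between 3444.5 and 3613.5 UMIs in SAP and between 3320 and 3357.5 in Control.

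Trac and Trbc2 were lower in the Trdc gate than in the Cd8b1 gate in each library, and Cd3g and Cd3e were higher. Trac had 262 CPM in the Trdc gate and 573 CPM in the Cd8b1 gate of SAP, a ratio of 0.456 (0.424–0.491), and 289 CPM against 607 CPM in Control, a ratio of 0.475 (0.442–0.511). Trbc2 had 882 CPM in the Trdc gate and 1402 CPM in the Cd8b1 gate of SAP, a ratio of 0.629 (0.602–0.658), and 910 CPM against 1550 CPM in Control, a ratio of 0.587 (0.562–0.613). Trbc1 did not follow Trbc2: its ratio was 1.12 (1.05–1.19) in SAP and 0.929 (0.876–0.986) in Control, on opposite sides of 1. With gates taken on cells thinned to 1000 UMIs the Control ratio was 1.02, so its side of 1 was not stable. Both β constant genes thus stood nearer to their Cd8b1-gate level in Trdc-gate cells than Trac did.

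The CD3 dimer chains all ran the other way. Cd3g had 2562 CPM in the Trdc gate and 1622 CPM in the Cd8b1 gate of SAP (ratio 1.58) and 2608 CPM against 1705 CPM in Control (ratio 1.53). Cd3e had 1701 CPM against 1102 CPM in SAP (ratio 1.54) and 1812 CPM against 1239 CPM in Control (ratio 1.46). Cd3d, which the mouse γδ receptor does without, was higher in the Trdc gate as well, at 1.27 in SAP and 1.35 in Control. Cd247 stood at 1.29 (1.10–1.53) in SAP and 1.17 (0.991–1.39) in Control. Past 1.5-fold were 4 of the 7 genes in SAP (Cd3e and Cd3g higher, Trac and Trbc2 lower) and 3 in Control (Cd3g higher, Trac and Trbc2 lower). When Cd8b1-gate cells also had to carry a Cd8a UMI, the SAP count was 2, with Cd3e at 1.43 and Cd3g at 1.43. The background was 15.1% of 5813 genes in SAP (11.9% higher, 3.13% lower) and 14.5% of 5546 genes in Control (11.5% higher, 2.99% lower). Of the γ constant genes, which encode the partner chain of δ, Trgc1 had a ratio of 24.4 in SAP and 15.7 in Control. Trgc4 stood at 1.33 and 1.42, and Trgc2 at 1.04 (0.919–1.18) in SAP and 1.2 (1.05–1.38) in Control, so only Trgc1 separated the gates widely. A list of natural killer and innate lymphoid markers, 10 of 11 with a UMI in each gate, summed to 296 CPM in the Trdc gate and 467 CPM in the Cd8b1 gate of SAP, and to 310 CPM in the Trdc gate and 473 CPM in the Cd8b1 gate of Control.

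**Figure D2:**
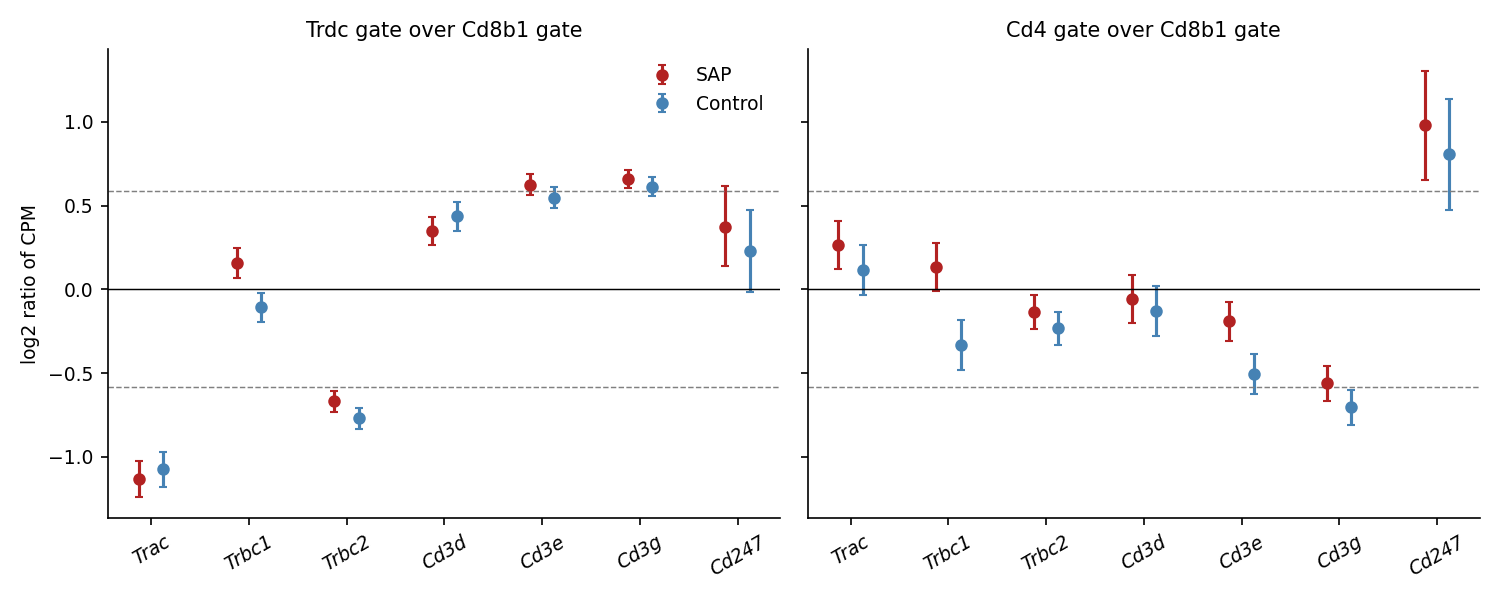
Level of each of the 7 genes in the Trdc gate (left) and the Cd4 gate (right) over the Cd8b1 gate, as log2 ratios of CPM for SAP (red) and Control (blue) with 95% counting intervals; dashed lines mark 1.5-fold. Trac and Trbc2 lie below the lower line in the left panel in each library, and Cd247 lies above the upper line in the right panel in each library.

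Trac UMIs were also caught in Trdc-gate cells. After thinning, 23.1% (21.3–25.1) of 1906 SAP cells and 23.8% (22.0–25.6) of 2124 Control cells of that gate had a Trac UMI, against 42.3% of SAP and 41.6% of Control cells in the Cd8b1 gate. In the Folr1-led cluster the share was 4.48% (0.933–12.5) of 67 SAP cells and 12.1% (3.40–28.2) of 33 Control cells. The Trdc-gate share was above that interval in SAP and inside it in Control, where the share was not clear of a background read on 33 cells. As a level, Trac had 289 CPM (277–301) in the Control Trdc gate and 45.3 CPM, from 27 UMIs, in the Control Folr1-led cluster. Without thinning, 50.7% of SAP and 51.9% of Control cells of the Trdc gate had a Trac UMI, and 90.2% in each library had a UMI of Trbc1 or Trbc2. The number of Trdc UMIs in a cell separated cells without Trdc from all others more than it graded the others. Over T-like cells with 0, 1, 2 to 4, 5 to 9 and 10 or more Trdc UMIs, Trac had 690, 300, 264, 279 and 285 CPM in SAP and 701, 325, 290, 305 and 253 CPM in Control. Cd3g graded through all 5 classes, at 1927, 2080, 2470, 2908 and 3213 CPM in SAP and 1945, 2111, 2531, 2904 and 3121 CPM in Control. Depth moved with Trdc too, with a median of 2473.5 UMIs at 1 Trdc UMI and 5183 at 10 or more in SAP, and 2607.5 and 4992 in Control. Its part in these values was not tested.

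In the Cd4 gate, Cd247 had the highest ratio to the Cd8b1 gate of the 7 genes. Cd247 had 170 CPM in the Cd4 gate and 86.2 CPM in the Cd8b1 gate of SAP, a ratio of 1.98 (1.58–2.47), and 160 CPM against 91.5 CPM in Control, a ratio of 1.75 (1.39–2.20). Cd3g was lower in the Cd4 gate, with 1099 CPM against 1622 CPM in SAP, a ratio of 0.678 (0.630–0.729), and 1046 CPM against 1705 CPM in Control, a ratio of 0.614 (0.570–0.661). Cd3e had ratios of 0.877 in SAP and 0.705 in Control, and Cd3d 0.963 in SAP and 0.916 in Control. Trac stood at 1.2 (1.09–1.33) in SAP and 1.08 (0.979–1.2) in Control. Past 1.5-fold was Cd247 in SAP, where 19.0% of 5512 genes tested were (8.22% higher). In Control, Cd247 was higher and Cd3g lower past it, where 17.5% of 5180 genes were (7.39% higher, 10.1% lower). With 1 and 2 of 7 genes past the fold, the count is near the background. The Cd247 ratio rests on 146 UMIs in the SAP Cd4 gate and 140 UMIs in the Control Cd4 gate. On thinned SAP cells, Cd247 was seen in 13.3% (9.05–18.7) of the Cd4 gate and 6.07% (4.19–8.46) of the Cd8b1 gate. In Control these shares were 11.2% (7.35–16.0) and 7.93% (5.75–10.6), with intervals that overlap.

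Markers of other cells moved with the Cd4 gate. The natural killer and innate lymphoid list, which includes Il7r, Rora and Gata3 that T cells also express, summed to 1123 CPM in the Cd4 gate (10 of 11 with a UMI) and 467 CPM in the Cd8b1 gate of SAP, and to 1016 CPM (9 of 11) and 473 CPM in Control. Its part in the result was not tested. The plasma cell list summed to 107 CPM in the Cd4 gate and 96.0 CPM in the Cd8b1 gate of SAP, and to 9084 CPM and 117 CPM in Control, where it stood above the T cell list of the Cd4 gate, 7389 CPM. In that Control gate 7830 of 7946 plasma list UMIs came from 1 cell, and without it the list summed to 135 CPM. Without that cell the Control ratios were 1.74 (1.38–2.20) for Cd247 and 0.624 (0.579–0.672) for Cd3g.

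Between the libraries, the 7 genes were also close within each gate. Taken over T-like cells, Trac had SAP over Control ratios of 0.928 (0.873–0.986) in the Trdc gate, 0.965 (0.888–1.05) in the Cd8b1 gate and 1.05 (0.932–1.18) in the Cd4 gate. Cd3g stood between 0.971 and 1.06 in these gates and in cells with no gate gene, with intervals that held 1. Past 1.2-fold was 1 gene in 1 gate, Trbc1 in the Cd8b1 gate, with 623 CPM in SAP and 750 CPM in Control. The background there was 33.5% of genes, and it was 39.0% in the Cd4 gate, 13.5% in the Trdc gate and 15.6% in cells with no gate gene.

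Across the clusters, which were built without these genes, the same contrast appeared. Cluster 9, the cluster whose leading genes include Cd4, Icos and Cd40lg, had the highest Cd247 level of the T-like clusters, at 145 CPM in SAP and 137 CPM in Control. It also had, among them, the lowest Cd3g, at 804 CPM in SAP and 687 CPM in Control, and the lowest Cd3e, at 632 CPM in SAP and 608 CPM in Control. Cluster 4 had the highest Cd3g, at 3286 CPM in SAP and 3492 CPM in Control. Cluster 11, led by natural killer receptor genes such as Klra7, had the lowest Cd247 of the T-like clusters, at 39.1 CPM in its 63 SAP cells and 43.1 CPM in its 59 Control cells, beside a Cd3g level of 2652 CPM in SAP and 2653 CPM in Control. With fewer than 100 cells in each library, its Cd247 level rests on few UMIs. Trac ran between 271 and 687 CPM over the 9 T-like clusters with at least 100 cells in each library, lowest in cluster 7 and highest in cluster 9. Summed over the 4 CD3 chains the range was 2033 to 6815 CPM, and summed over both β constant genes it was 1583 to 2177 CPM. A cluster comparison here describes cells, since the clusters were drawn from the same cells.

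Cd247 was also set beside Fcer1g, whose product, the FcRγ chain, can take the place of ζ in the receptor complex of some mouse intestinal intraepithelial T cells. Over T-like cells with 0, 1, 2 to 4, 5 to 9 and 10 or more Fcer1g UMIs, Cd247 had 119, 103, 96.6, 82.5 and 73.9 CPM in SAP and 116, 108, 80.0, 80.7 and 71.2 CPM in Control. Cd3g ran the other way, with 1492, 2096, 2306, 2667 and 3195 CPM in SAP and 1517, 1929, 2255, 2723 and 3212 CPM in Control. The ratio of cells with Fcer1g over cells without it was 0.709 (0.642–0.784) for Cd247 in SAP and 0.689 (0.624–0.761) in Control. It was 1.83 for Cd3g in SAP and 1.78 in Control, and 1.34 for Trbc1 in SAP and 1.32 in Control. Within the larger classes the values differed. Cd3g stood at 1.43 in SAP and 1.37 in Control inside the Trdc gate, and at 2.23 and 2.21 with no gate gene. Trbc1 stood at 1.10 and 1.33 inside the Trdc gate, and at 1.62 and 1.44 with no gate gene. Trac, at 1.09 and 1.04 over all T-like cells, stood at 1.75 and 1.80 inside the Trdc gate and 1.51 and 1.31 with no gate gene. Over all T-like cells Trbc2 ran below 1, at 0.916 (0.890–0.944) in SAP and 0.895 (0.870–0.921) in Control, but not within the larger classes. Inside the Trdc gate the Trbc2 ratio was 1.16 (1.10–1.24) in SAP and 1.12 (1.05–1.18) in Control. With no gate gene it was 1.06 (1.01–1.11) in SAP and 1.02 (0.977–1.07) in Control. In the Cd8b1 gate it was 0.962 (0.846–1.09) in SAP and 0.856 (0.756–0.967) in Control.

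**Figure D3:**
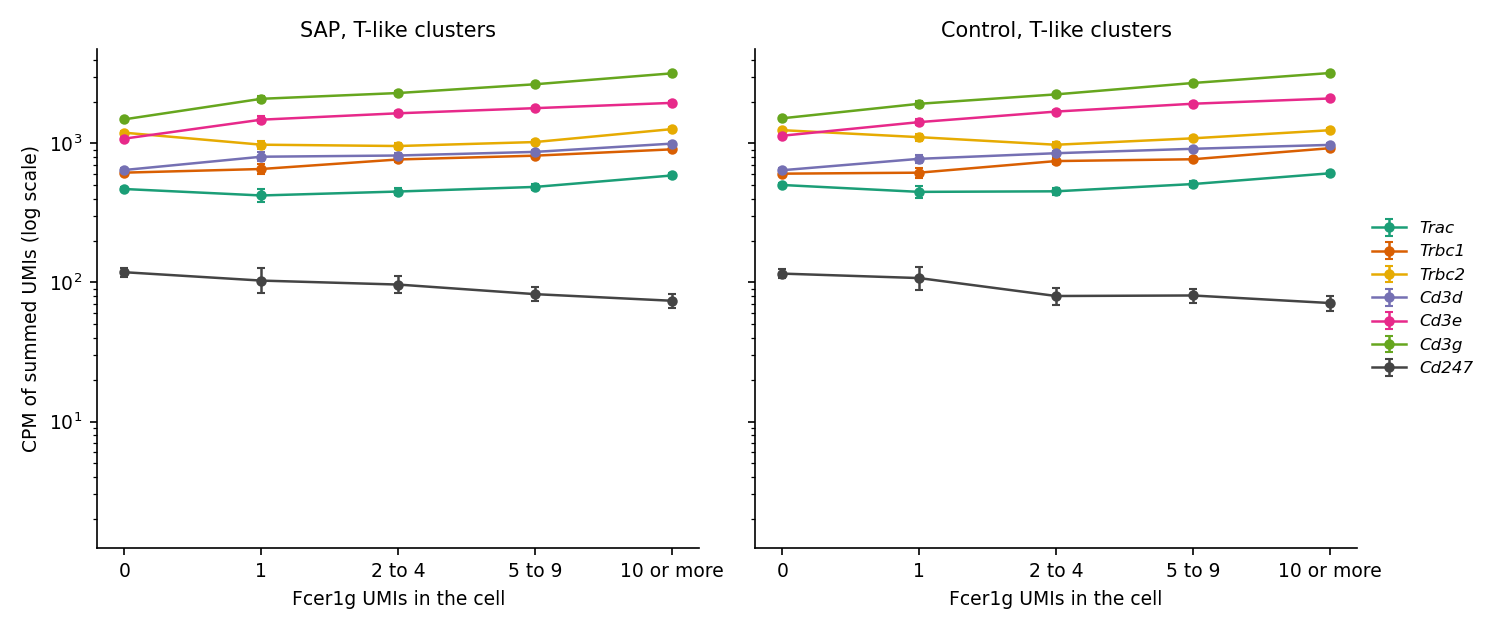
CPM of summed UMIs (log scale) of the 7 genes in T-like cells with 0, 1, 2 to 4, 5 to 9 and 10 or more Fcer1g UMIs, with SAP on the left and Control on the right and 95% counting intervals. Cd247 is lower with more Fcer1g, at 119 CPM without it and 73.9 CPM with 10 or more in SAP and 116 and 71.2 CPM in Control, while Cd3g and Cd3e run higher.

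As CPM, Cd247 was lower with Fcer1g within classes too. Inside the Trdc gate the ratio was 0.692 in SAP and 0.685 in Control, and among cells with no gate gene it was 0.522 in SAP and 0.551 in Control. In the Cd8b1 gate, which had few Fcer1g cells, it was 0.790 (0.422–1.36) in SAP and 0.626 (0.326–1.10) in Control, intervals that hold 1. Between the Trdc and Cd8b1 gates, Fcer1g and Cd247 did not run opposite. Fcer1g had a Trdc over Cd8b1 gate ratio of 14.7 in SAP and 14.4 in Control. For Cd247 that gate ratio was 1.29 (1.10–1.53) in SAP and 1.17 (0.991–1.39) in Control. Depth moved with Fcer1g, with a median of 2827 UMIs without it and 4817 UMIs at 10 or more in SAP, and 2709 and 4348 UMIs in Control. On cells thinned to 1000 UMIs, Cd247 was seen in 8.35% of 2490 SAP cells with Fcer1g and 9.50% of 1768 without, and in 7.84% of 2910 Control cells with it and 9.14% of 1958 without. Those intervals overlap, so at that depth the difference over all T-like cells was not separated from counting error. Within the Trdc gate the shares were 10.7% with Fcer1g and 11.6% without in SAP and 9.83% and 10.5% in Control, also with overlapping intervals. In the Cd8b1 gate they were 6.52% with it and 5.88% without in SAP, the other direction, and 6.25% and 8.12% in Control, on 46 SAP and 48 Control cells with Fcer1g. In the class with no gate gene, where the intervals did not overlap, the shares were 4.97% with Fcer1g and 9.37% without in SAP, and 4.82% and 8.59% in Control. Depth differed widely in that class, with a median of 3664 UMIs with Fcer1g and 1859 without in SAP, and 3292 and 2151 in Control. Thinning kept 946 of 1010 SAP cells with Fcer1g and 619 of 895 without, and 1163 of 1248 and 768 of 1034 in Control. The part of depth in this difference was not tested.

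The β constant genes were next counted cell by cell. Among retained SAP cells, 385 had UMIs of Trbc1 only, 1673 of Trbc2 only, 2201 (45.6%) of both and 567 of neither. Among Control cells these numbers were 420, 1938, 2442 (45.2%) and 608. Trbc1-only cells numbered 0.230 (0.205–0.257) per Trbc2-only cell in SAP and 0.217 (0.195–0.241) in Control, intervals that overlap. As UMIs, Trbc1 ran at 0.657 of Trbc2 in SAP and 0.626 in Control. A cell enters the cell ratio only when no UMI of the other gene was caught.

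The ratio of Trbc1-only to Trbc2-only cells differed between gates. In SAP it was 0.302 in the Trdc gate, 0.149 in the Cd4 gate and 0.118 in the Cd8b1 gate, and in Control it was 0.280, 0.136 and 0.108. As UMIs, Trbc1 over Trbc2 stood at 0.777, 0.527 and 0.438 in these SAP gates and at 0.764, 0.451 and 0.483 in the Control gates, so the order of the Cd4 and Cd8b1 gates changed with the measure in Control. The Trdc gate was highest on either measure in each library. After thinning to 1000 UMIs the cell ratios were 0.514, 0.333 and 0.221 in the SAP gates and 0.523, 0.209 and 0.228 in the Control gates.

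The ratio moved still more with depth. In cells under 1000 UMIs it was 0.783 in SAP and 0.631 in Control, in cells with 1000 to under 2000 UMIs 0.377 in SAP and 0.386 in Control, and in cells with 4000 to under 8000 UMIs 0.0788 in SAP and 0.105 in Control. In the deepest cells, of 8000 UMIs or more, it was 0.182 in SAP, from 6 and 33 cells, and 0.120 in Control, from 3 and 25 cells. These classes hold all retained cells, including the Folr1-led cluster, where the ratio was 0.474 in SAP and 0.778 in Control. Among T-like cells of 8000 UMIs or more, Trbc2 was missing from 0.971% in SAP and 2.67% in Control, so few of them can be Trbc1-only. The higher values in the deepest class are therefore not a result about T-like cells. Thinning all cells to 1000 UMIs gave 0.410 in SAP and 0.396 in Control. The ratio of Trbc1-only to Trbc2-only cells therefore has no value apart from the depth at which it is read.

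Cells with many Trbc UMIs did not fall into 2 separate sets. Of 1119 SAP cells with at least 10 Trbc UMIs, 70.9% had a Trbc1 share between 0.1 and 0.9, 23.8% had at most 0.1 and 5.36% at least 0.9. Of 1125 Control cells, the corresponding shares were 67.5%, 26.4% and 6.13%. In the Trdc gate a mixed share was commoner, 81.2% of 420 SAP cells and 79.1% of 397 Control cells, than in the Cd8b1 gate, 66.7% of 150 SAP cells and 63.8% of 152 Control cells. The part of reads that fit either gene was not tested.

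**Figure D4:**
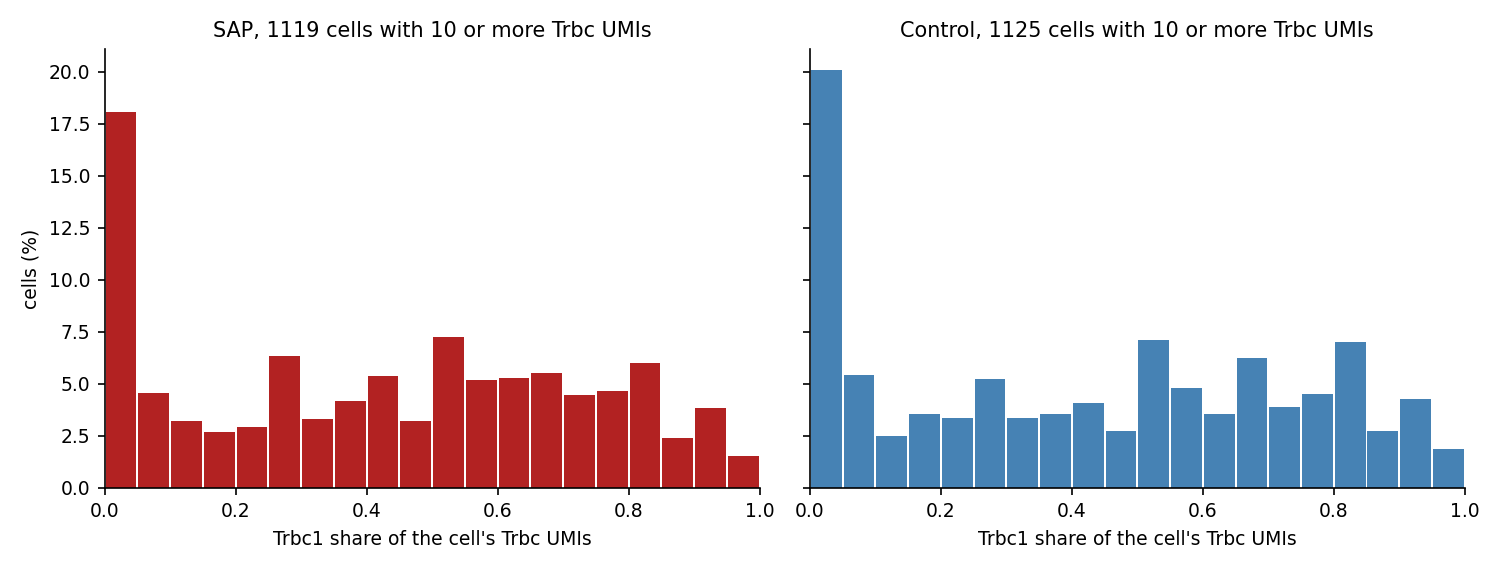
Trbc1 share of a cell's Trbc1 and Trbc2 UMIs (x axis, 0 to 1) against percent of cells (y axis), for cells with at least 10 Trbc UMIs in SAP (left, 1119 cells) and Control (right, 1125 cells). A single peak stands at the Trbc2 end and the rest spreads over the whole axis, with 70.9% of SAP cells and 67.5% of Control cells between 0.1 and 0.9.

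Failure to see a gene followed depth closely. In T-like cells under 1000 UMIs, 1000 to under 2000, 2000 to under 4000, 4000 to under 8000 and 8000 or more, Trac was missing from 75.2, 54.8, 35.1, 22.8 and 7.77% of SAP cells and from 75.4, 54.2, 33.8, 20.6 and 10.7% of Control cells. Cd3g was missing from 49.3, 18.7, 4.52, 1.81 and 0.971% of SAP cells and from 47, 12.7, 4.89, 1.87 and 2.67% of Control cells. Cd247, the ζ chain, was still missing from 51.5% of the 103 SAP cells and 50.7% of the 75 Control cells in the deepest class.

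Trbc1 behaved unlike the other chains. It was missing from 73.7, 59.2, 43.0, 36.4 and 25.2% of SAP cells over the same classes and from 73.8, 58.8, 43.9, 37.2 and 30.7% of Control cells, while Trbc2 reached 0.971% in SAP and 2.67% in Control. At 8000 UMIs or more, Trbc1 and Cd247 were thus the 2 genes still missing from more than 20% of cells. When the 1695 SAP and 1485 Control cells with at least 4000 UMIs were thinned to 1000, Trbc1 was missing from 62.6% in SAP and 61.5% in Control, Trac from 65.1% and 63.0%, Cd3g from 21.5% and 21.2%, and Cd247 from 92.3% and 91.6%.

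**Figure D5:**
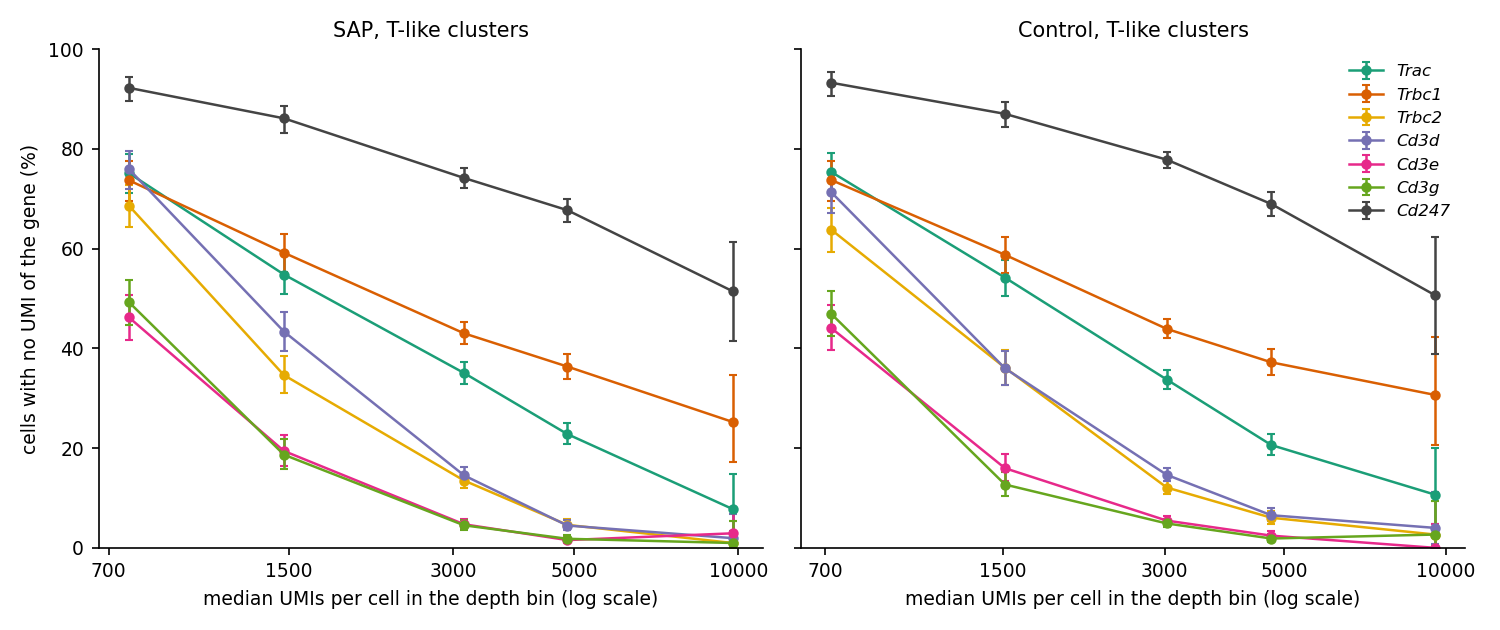
Percent of T-like cells with no UMI of each of the 7 genes (y axis) against the median UMIs per cell of 5 depth classes (x axis, log scale), for SAP (left) and Control (right), with 95% Clopper-Pearson intervals. In the deepest class Cd3g is missing from 0.971% of SAP and 2.67% of Control cells, whereas Trbc1 is missing from 25.2% in SAP and 30.7% in Control and Cd247 from 51.5% and 50.7%.

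Few cells lacked the whole set. None of the 7 genes had a UMI in 90 SAP cells (1.86%) and 70 Control cells (1.29%). Of these, 18 SAP and 17 Control cells lay in the Folr1-led cluster, and 71 SAP and 52 Control cells had under 1000 UMIs. Only 3 cells in each library were outside that cluster, had at least 2000 UMIs and lacked all 7. None of the 4 CD3 genes was seen in 169 SAP cells (3.50%) and 146 Control cells (2.70%). At the other end, all 4 CD3 genes were seen in 20.2% of SAP and 17.7% of Control cells, and 3 of the 4 in 54.0% of SAP and 57.3% of Control cells. Trac together with a Trbc gene was seen in 58.1% of SAP and 59.3% of Control cells, and a CD3 gene with neither in 6.07% of SAP and 6.27% of Control cells.

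Among pairs, Cd3e and Cd3g, whose products form a dimer, were the most correlated. Across cells, Pearson's r of log2 values (UMIs per 10000 plus 1) was 0.467 over 4826 SAP cells and 0.440 over 5408 Control cells, and 0.260 and 0.225 after thinning. Cd3d with Cd3g had 0.371 in SAP and 0.316 in Control, against 0.143 and 0.124 after thinning. Cd3d with Cd3e, whose products also form a dimer, stood lower, at 0.311 in SAP and 0.242 in Control. After thinning that pair had 0.113 and 0.0809. The order of the pairs thus did not follow dimer formation. A Cd3g UMI was seen in 93.0% of SAP cells with Cd3e and 56.4% without, and in 93.8% and 60.8% of Control cells. On thinned cells these shares were 83.6% and 66.4% in SAP and 83.8% and 68.7% in Control. Trbc1 with Trbc2 stood near 0, at 0.0505 in SAP and 0.0134 in Control, and at −0.00236 and −0.0287 after thinning. These correlations are across cells of 1 library, which share its preparation and its spread in depth, and the CD3 values were smaller after thinning.

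The genes with the most similar cluster profile were found over 18 points, 9 T-like clusters in each library, among 2865 genes. For Trac these included Lilr4b (r = 0.869), Ahnak (0.850), Cpd (0.825) and Runx1 (0.815). For the summed CD3 chains they were Cela1 (0.967), Lat2 (0.962), Cd72 (0.961), Pltp (0.958) and Cited4 (0.957). For the summed β constant genes the best, Fkbp3, reached 0.671, and Hsp90aa1, Magoh, Mepce and Snhg12 followed. The points share 2 libraries, and no p-value is given.

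Over all retained cells, genes that carry the receptor's signal inward were close between the libraries as well. Of the 46 genes on a list of kinases, adaptors and regulators, 41 were counted deeply enough, and 0 of 41 were past 1.2-fold (background 16.3%). Their median ratio was 1.0, beside 1.03 over all genes. The highest were Prkcq, a kinase of the receptor synapse, with 33.8 CPM in SAP and 28.3 CPM in Control (1.19; 1.06–1.35), and Malt1, a protease of the same pathway, at 1.18 (1.11–1.25). The lowest were Sla2, an adaptor that dampens the receptor, with 59.9 CPM in SAP and 71.4 CPM in Control (0.840; 0.773–0.911), and Sh2d1a at 0.879. All retained cells include the Folr1-led cluster, and the list was not counted in the T-like clusters alone. With Prkcq and Malt1 just under the cut, the count of 0 past 1.2-fold is not a result about T-like cells.

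Between the Trdc and Cd8b1 gates 43 of the list were counted deeply enough, and 5 were past 1.5-fold higher and 10 lower in SAP, with 5 higher and 9 lower in Control. Over all genes tested, 11.9% were higher and 3.13% lower in SAP and 11.5% higher and 2.99% lower in Control, so the count of higher genes is near the background. The lowest were the inhibitory coreceptors Cd5, with 6.06 CPM in the Trdc gate and 177 CPM in the Cd8b1 gate of SAP and 3.49 CPM against 200.2 CPM in Control, and Cd6, with 20.6 CPM against 432 CPM in SAP and 15.4 CPM against 438 CPM in Control. The highest were the phosphatase Ptpn6, with 138 CPM against 48.5 CPM in SAP and 133 CPM against 45.7 CPM in Control, and the kinase Txk at a ratio of 2.51 in each library. In the Cd4 gate over the Cd8b1 gate, 13 of 43 were higher and 1 lower past 1.5-fold in SAP, and 11 higher and 3 lower in Control. Over all genes tested, 8.22% were higher and 10.8% lower in SAP, and 7.39% higher and 10.1% lower in Control. The highest there was Sh2d1a, an adaptor of SLAM family receptors, at 3.39 in SAP and 4.23 in Control. The lowest in SAP was Vav1 (0.633), and in Control the lowest were Themis (0.551) and Sla2 (0.614).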

How the data were processed

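The authors deposited, for each of 2 libraries, a sparse matrix of raw UMI counts per gene and barcode. Per the file headers, Cell Ranger 7.1.0 wrote them, and mm10 and Seurat are named in the submitters' processing notes. The labels' protocols give a 10x Chromium 3′ kit. The sources used here do not give the annotation behind the counts, the handling of reads that fit several genes, or filters before deposit. The 7 genes, the other gene lists, the classes and the thresholds were chosen with earlier results of these data known.

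Cells with at least 500 UMIs, 300 genes and at most 10% mitochondrial UMIs were kept. Scrublet's own threshold marked 1 cell in each library, so the cells with the highest scores were removed up to 0.8% per 1000 cells, 202 (4.02%) in SAP and 257 (4.54%) in Control. Clusters came from scanpy 1.11.5 (2000 variable genes without the 7 genes, receptor segments, mitochondrial and ribosomal genes, 30 components, 15 neighbours, leidenalg 0.10.2 at resolution 0.8). UMIs were summed per library or class and given as CPM. Genes entered the background with at least 20 CPM in 1 of the groups and 50 UMIs in both together. Genes named beyond the 7 are the 2 highest and 2 lowest of the signalling list and the 5 closest cluster profiles, from genes of at least 50 CPM by r of log2(CPM + 10), and some that the rule names are not reported here. The ratio intervals and thinning were tested on simulated data. For the intervals, library sums were drawn as Poisson counts, which leave out extra spread between cells. Sequences come from GENCODE M21 and RefSeq on GRCm38, and the counting annotation is newer than M21. With 1 library per condition no test of conditions was run. Alternatives included edgeR 4.0.16 and DESeq2 1.42.0 scaling factors, used as factors only and without a test.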

Additional observations from a re-analysis of the deposited data

Results flagged for a closer look

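Within the gates of the T-like clusters, the SAP over Control ratios of Trbc1 and Cd3e lay on opposite sides of 1 in different cell classes, with intervals that did not hold 1. With 1 library per condition, the difference between classes was not tested. Trbc1 stood at 1.13 (1.004–1.28) in the Cd4 gate, from 577 UMIs in 223 SAP cells and 521 UMIs in 233 Control cells, and 1 SAP cell gave 50 of those UMIs. It stood at 1.09 (1.05–1.14) in cells with no gate gene and at 0.831 (0.769–0.898) in the Cd8b1 gate, from 1240 UMIs in 543 SAP cells and 1392 UMIs in 540 Control cells, of which 1 Control cell gave 65. Cd3e stood at 1.11 (1.003–1.22) in the Cd4 gate, with 970 CPM in SAP and 875 CPM in Control, against 0.961 in the Trdc gate, 0.908 in the Cd8b1 gate and 0.946 in cells with no gate gene. Without 1 Control cell rich in plasma cell markers, a choice made after seeing the data, the Cd4 gate ratios were 1.11 (0.986–1.25) for Trbc1 and 1.09 (0.987–1.21) for Cd3e, intervals that held 1.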

How the results depend on the processing

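Of the values that answer a comparison, 44 stayed within their interval or count limit under an alternative and 13 moved. Of the other values, most of them for single genes, 239 stayed, 99 moved and 1 changed side. The 239 include the highest and lowest SAP over Control ratios, which were entered as unchanged without a check. Pair correlations were judged by a fixed difference and not by an interval. The ratio of Trbc1-only to Trbc2-only cells was 0.185 in SAP and 0.181 in Control with at least 2 UMIs of a gene, 0.511 and 0.5002 where the larger count decided, and 0.410 and 0.396 on thinned cells. Trbc1 in the Trdc over the Cd8b1 gate of Control changed side, to 1.02, with gates taken on thinned cells. The number of the 7 genes past 1.5-fold in the SAP Trdc gate was 2 with a Cd8a UMI also required. In the SAP Cd4 gate it was 2 with at least 2 gate UMIs, 2 with a Cd8a UMI and 3 on thinned cells. Cells with both Cd3e and Cd3g were 60.05% in SAP and 62.1% in Control after thinning, against 83.0% and 84.4% before. Control cells without any of the 7 genes were 0.989% in the T-like clusters alone, an alternative chosen after seeing the data. The causes were not tested, except that thinning leaves fewer UMIs per cell. For SAP over Control, 4 of 7 ratios were below 1 in the T-like clusters and 6 or 7 under the other population and scaling choices, and the all-gene median log2 ratio ran from −0.03 with edgeR or DESeq2 factors to 0.06 in the T-like clusters. No paired analysis was possible because each condition has 1 library. Depth limits the β constant gene ratio and the shares of cells with Cd247.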
